A study of Mus musculus with 18 samples.

Results

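The genes described here are the 10 melanocyte lineage genes Pmel, Mlana, Tyr, Tyrp1, Dct, Slc45a2, Oca2, Mitf, Sox10 and Gpnmb, taken by symbol from a table of 37236 genes. They were followed across 18 libraries of T cells sorted from B16-OVA melanomas, as a reading of how much tumor cell RNA each sample held. All 10 had reads in at least 1 library, and 9 passed the filter on low values (a mean normalized count of at least 10 over the 18 libraries, which 11992 genes passed). The exception was Tyr. B16-OVA is a C57BL/6 mouse melanoma line that carries ovalbumin as a model antigen, and 500000 of its cells were injected under the skin of wild-type or Nr2f6-/- C57BL/6 mice. From day 3 the mice received 0.5 mg of anti-PD-L1 antibody (αPD-L1) or of an IgG2b control antibody on repeated days, and tumors were taken on day 14. Nr2f6-/- mice lack the nuclear receptor NR2F6 in all host cells, whereas the tumor line was the same in every mouse. This gave 3 wild-type samples with IgG2b, 6 wild-type samples with αPD-L1, 3 Nr2f6-/- samples with IgG2b and 6 Nr2f6-/- samples with αPD-L1. The tumor-infiltrating lymphocytes (TILs) were enriched with beads against CD4 and CD8, stained for CD3 and sorted after exclusion of dead cells.

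Pigment is made in the melanosome, an organelle of melanocytes and of pigmented melanoma cells. PMEL forms the amyloid fibrils of the melanosome and MLANA takes part in its maturation. Tyrosinase (TYR) catalyses the first step of melanin synthesis, and the related proteins TYRP1 and DCT act later in the pathway. SLC45A2 and OCA2 are melanosomal transport proteins that set its pH, while the transcription factors SOX10 and MITF switch on many of these genes. GPNMB is a melanosomal glycoprotein that macrophages and dendritic cells also make, and MITF is likewise used by macrophages and mast cells. A sum was therefore taken over the 8 genes other than Mitf and Gpnmb, called the pigment-cell genes from here on. T cells are not known to make pigment.

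The sequences around the start sites of the 3 pigment enzymes are shown because MITF binds the motif CATGTG, the core of the M-box, in pigment gene promoters. Each covers 250 bases before to 50 bases after the start in the RefSeq table of build GRCm38.p6, read 5′ to 3′ along the gene, with every CATGTG on either strand (CACATG on the other) in capitals. The Tyrp1 sequence lies at chr4:80833963-80834262 on the plus strand, that of Tyr at chr7:87493463-87493762 on the minus strand and that of Dct at chr14:118052197-118052496 on the minus strand.
Tyrp1: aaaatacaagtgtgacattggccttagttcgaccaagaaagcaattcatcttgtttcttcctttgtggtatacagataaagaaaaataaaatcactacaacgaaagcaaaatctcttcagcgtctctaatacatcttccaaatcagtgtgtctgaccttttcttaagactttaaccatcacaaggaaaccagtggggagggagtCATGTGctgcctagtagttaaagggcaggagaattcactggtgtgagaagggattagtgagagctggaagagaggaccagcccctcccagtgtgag
Tyr: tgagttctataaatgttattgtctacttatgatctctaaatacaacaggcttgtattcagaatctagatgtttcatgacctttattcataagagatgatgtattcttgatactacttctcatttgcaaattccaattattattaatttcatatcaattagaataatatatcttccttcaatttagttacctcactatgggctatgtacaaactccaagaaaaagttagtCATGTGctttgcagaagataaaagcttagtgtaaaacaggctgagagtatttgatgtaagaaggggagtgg
Dct: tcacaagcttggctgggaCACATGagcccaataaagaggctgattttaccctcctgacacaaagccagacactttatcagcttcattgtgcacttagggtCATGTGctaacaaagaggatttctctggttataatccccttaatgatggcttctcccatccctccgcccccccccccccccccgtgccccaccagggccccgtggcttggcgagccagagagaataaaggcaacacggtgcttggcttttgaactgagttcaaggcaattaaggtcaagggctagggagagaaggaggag
The motif began 46 bases before the start of Tyrp1 and 21 bases before that of Tyr, and Dct had it 232 and 150 bases before its start. For Tyrp1 the start in the promoter table lies inside the annotated gene (chr4:80834123-80851719), and so does the motif. The table held 8 promoters of 6 of the 10 genes. Besides the 3 above, that of Oca2 held the motif (as CACATG), and neither those of Gpnmb nor the 3 of Mitf did. Of 32851 mouse promoters of this length, 14.2% held CATGTG on either strand. The E-box CACGTG, which reads the same on both strands, was in 7.15% of them and in none of the 8. A match describes the letters only, and binding was not measured.

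Between 12473391 and 18609482 reads per library were counted on genes. The samples had T cell RNA: the 10 T cell markers were in every library, and their summed normalized count ran from 63422 to 103075. Nr2f6 had 0 reads in all 9 Nr2f6-/- libraries and 20.2 to 201 normalized counts in the 9 wild-type ones, as the labels say. The keratinocyte markers Krt5, Krt14 and Krt15 and the B cell marker Cd79a were at or near 0, as were the 5 mast cell markers, whose sum did not exceed 13.6. Neither the keratinocyte nor the B cell list was at 0 as a whole. The keratinocyte marker Krt10 had reads in 16 libraries, with a mean of 40.7 normalized counts, and the 5 B cell markers summed to 901 to 4159.8, nearly all of it from the immunoglobulin heavy chain gene Ighm, which had 900.3 to 4153 and reads in all 18 libraries. Macrophage markers were present and moved with the antibody. The sum of the 14 macrophage markers was 16514 to 20486 in wild-type mice with IgG2b and 1680 to 6817 with αPD-L1, against 9385 to 13115 and 926 to 2618 in Nr2f6-/- mice. Globin genes of red blood cells were high in 1 library, wild-type αPD-L1 replicate 5, where the 4 measured summed to 10818 normalized counts against a median of 93.7 over all libraries. Replicates 1 to 3 of every group carry consecutive library numbers, and replicates 4 to 6 of the αPD-L1 groups carry later ones, so these are called the first and second library set.

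Reads of the pigment-cell genes were found in every sorted library. Their sum made up 0.00500% to 0.0512% of the reads counted on genes. In normalized counts (reads divided by the library's size factor, the scale used from here on) the 3 wild-type samples with IgG2b had sums of 2467, 4681 and 3029. Wild-type samples with αPD-L1 ranged from 2075 to 7823, with a median of 3555. Those of the 3 Nr2f6-/- samples with IgG2b were 2297, 1336 and 1251, all below the wild-type samples with the same antibody. Nr2f6-/- samples with αPD-L1 ranged from 799 to 4241, with a median of 1279. Here 4 samples lay between 799 and 1636 while replicates 1 and 6, at 4241 and 4053, lay within the wild-type range. In bulk samples, fewer tumor cells in the sort and less pigment gene RNA per tumor cell cannot be told apart, nor can whole cells and RNA released by dying ones.

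**Figure D1:**
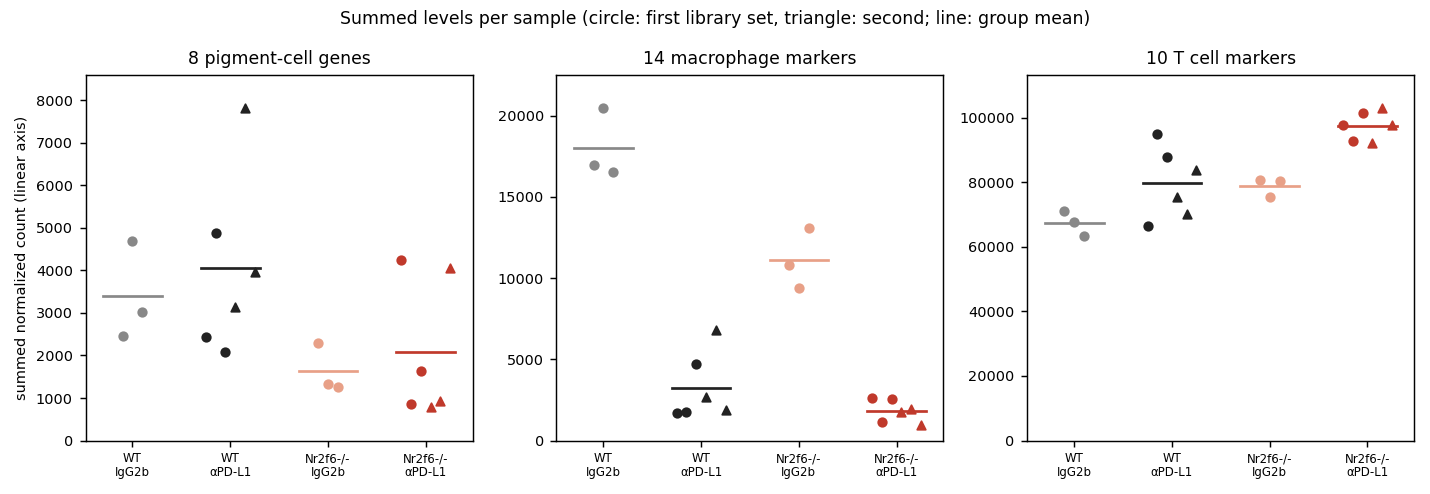
Summed normalized count of the 8 pigment-cell genes, 14 macrophage markers and 10 T cell markers (vertical axes, linear, from 0) in the 4 groups, one point per sample, circles for the first library set, triangles for the second and a line at the group mean. The pigment-cell sum was 2467 to 4681 in wild-type and 1251 to 2297 in Nr2f6-/- samples with IgG2b, whereas the macrophage sum separated the antibody groups.

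The sums are given without a test. The mean of the log2 sums was lower by 1.06 in Nr2f6-/- than in wild-type mice with IgG2b (ratio of geometric means 0.479) and by 1.18 with αPD-L1 (ratio 0.441), beside a pooled within-group SD of 0.74. Between antibodies it was higher by 0.16 with αPD-L1 in wild-type and by 0.04 in Nr2f6-/- mice, both smaller than that SD. All IgG2b samples were in the first library set, so the antibody groups also differ in library set. The levels of other cells' markers also differed along the genotype. Of the 14 macrophage markers, 13 had a lower estimate in Nr2f6-/- than in wild-type mice with IgG2b, where 54.1% of all genes did. With αPD-L1 11 of them did, where 50.3% of all genes did. None of the 14 passed the test in either comparison, which called 0% of all genes with IgG2b and 0.175% with αPD-L1. T cell markers summed to 63422 to 71041 and 75315 to 80582 in wild-type and Nr2f6-/- mice with IgG2b, and to 66464 to 95065 and 92054 to 103075 with αPD-L1. The 4 platelet markers summed to 2300.4 to 2611 in wild-type and 268 to 703 in Nr2f6-/- mice with IgG2b, with no overlap, and to 0 to 294 and 0 to 158 with αPD-L1. Most of this sum came from 1 gene, Pf4, with a mean of 493 normalized counts over the 18 libraries. Gp9 had 0 reads, Itga2b a mean of 0.82 and Ppbp reads in 3 libraries only. The 2 platelet markers that passed the filter on low values were not called in either genotype comparison. The part of these differences in the pigment gene values was not tested.

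The melanosome structural genes were read in every library. Pmel (Entrez Gene 20431, chr10:128704195-128720238 in GRCm38) had 483, 1215 and 645 normalized counts in the wild-type samples with IgG2b. It had 345, 193 and 439 in the Nr2f6-/- samples with IgG2b. With αPD-L1 its lowest, median and highest values were 278, 999 and 1417 in wild-type and 119, 315 and 1891 in Nr2f6-/- mice. The IgG2b groups did not overlap, whereas with αPD-L1 the highest of all 18 values was an Nr2f6-/- sample, replicate 6. Wild-type samples with αPD-L1 had 612, 728 and 278 in the first library set and 1343, 1270 and 1417 in the second, without overlap. The 3′ end of Pmel meets the gene Dgka on the other strand, and its 5′ end overlaps Cdk2. As the strand setting of the read counting is not given in the sources used here, reads of Dgka (439 to 2068 normalized counts) or Cdk2 (390 to 1160) may be part of the Pmel value. Across the 18 samples Pearson's r with Pmel on the log2 scale was −0.13 for Dgka and 0.33 for Cdk2. Their part in the Pmel value was not tested.

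Mlana (Entrez Gene 77836, chr19:29697824-29708634) had 228, 516 and 163 normalized counts in wild-type samples with IgG2b. In the Nr2f6-/- samples with IgG2b it had 46.6, 92.3 and 36.4, so these groups did not overlap either. With αPD-L1 its lowest, median and highest values were 127, 343 and 907 in wild-type mice and 0.9, 120 and 313 in Nr2f6-/- mice. The Nr2f6-/- samples split: replicates 2, 4 and 5 had at most 20 normalized counts, below every wild-type sample, and replicates 1, 3 and 6 had at least 220.

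Among the pigment enzymes, Dct and Tyrp1 were read in every library and Tyr hardly at all. Dct (Entrez Gene 13190, chr14:118012790-118052244) had 989, 1524 and 1188 normalized counts in the wild-type samples with IgG2b. In the Nr2f6-/- samples with IgG2b it had 1219, 281 and 362, of which replicate 1 lay within the wild-type range. With αPD-L1 its lowest, median and highest values were 887, 1220 and 3062 in wild-type and 253, 391 and 1616 in Nr2f6-/- mice. In the αPD-L1 groups 4 of 6 Nr2f6-/- samples lay below the lowest wild-type sample, and replicates 1 and 6 did not. An antisense gene, 4930435M08Rik, overlaps Dct, and without a known strand setting its reads could count toward Dct.

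Tyrp1 (Entrez Gene 22178, chr4:80834123-80851719) had 648, 1221 and 798 normalized counts in wild-type and 565, 578 and 412 in Nr2f6-/- samples with IgG2b, without overlap. With αPD-L1 its lowest, median and highest values were 310, 524 and 1868 in wild-type and 172, 358 and 1512 in Nr2f6-/- mice, which overlapped over most of their range. Tyr (Entrez Gene 22173, chr7:87424771-87493512) was at 0 in 11 of 18 libraries and had a mean of 2.67 normalized counts. Its highest value was 24.7, in Nr2f6-/- IgG2b replicate 1. All 6 Nr2f6-/- samples with αPD-L1 were at 0, but 3 of the 6 wild-type samples with αPD-L1 were too. In this library type a count of 3 reads, the limit that a count of 0 allows, was worth 2.46 to 3.64 normalized counts, so most Tyr values could not be told from 0.

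**Figure D2:**
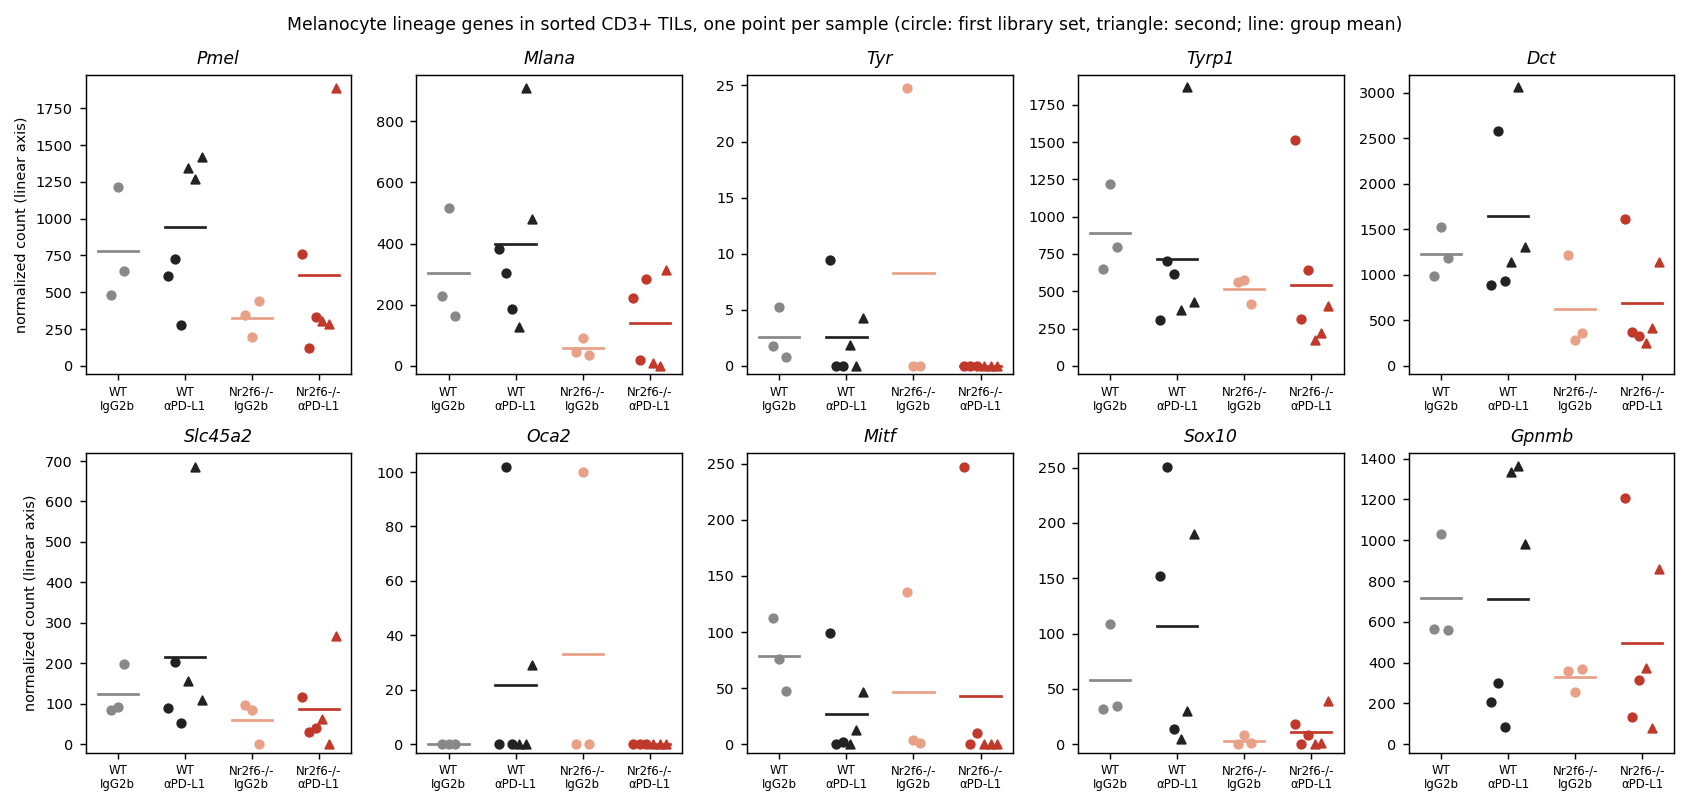
Normalized count (vertical axes, linear, one scale per gene) of the 10 melanocyte lineage genes in the 4 groups, one point per sample, circles for the first library set, triangles for the second and a line at the group mean. Pmel, Mlana, Tyrp1, Sox10 and Gpnmb did not overlap between the genotypes with IgG2b, with Nr2f6-/- lower, as was so for 8.07% of all genes. With αPD-L1 the genotypes overlapped in every panel.

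Of the transport proteins, Slc45a2 (Entrez Gene 22293, chr15:11000721-11029233) had 84.3, 91.7 and 198 normalized counts in the wild-type samples with IgG2b. It had 97.0, 83.9 and 0 in the Nr2f6-/- samples with IgG2b. With αPD-L1 its lowest, median and highest values were 51.2, 133 and 686 in wild-type and 0, 51.5 and 268 in Nr2f6-/- mice. The groups overlapped with either antibody. Oca2 (Entrez Gene 18431, chr7:56239760-56536518) had reads in 3 libraries only: wild-type αPD-L1 replicates 2 and 6, at 102 and 29.2, and Nr2f6-/- IgG2b replicate 2, at 99.9. With 15 libraries at 0, no fold change is given for it.

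Of the transcription factors, Sox10 (Entrez Gene 20665, chr15:79154908-79165240) had 31.6, 108 and 34.8 normalized counts in the wild-type samples with IgG2b. In the Nr2f6-/- samples with IgG2b it had 0, 8.48 and 1.04, and the groups did not overlap. With αPD-L1 it ran from 4.64 to 251 with a median of 91.0 in wild-type mice, and from 0 to 39.1 with a median of 4.70 in Nr2f6-/- mice. Mitf (Entrez Gene 17342, chr6:97807052-98021349) had 112, 76.1 and 47.3 normalized counts in the wild-type samples with IgG2b and 136, 3.77 and 1.04 in the Nr2f6-/- ones. With αPD-L1 it was at 0 in 2 of 6 wild-type and 4 of 6 Nr2f6-/- samples. The rest of those Nr2f6-/- samples had 247 in replicate 1 and 9.72 in replicate 3. Mitf thus separated no genotype groups.

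Gpnmb (Entrez Gene 93695, chr6:49036546-49070929) had 566, 1029 and 558 normalized counts in the wild-type samples with IgG2b. It had 358, 257 and 367 in the Nr2f6-/- samples with IgG2b, without overlap. With αPD-L1 its lowest, median and highest values were 83.6, 640 and 1364 in wild-type and 79.2, 346 and 1209 in Nr2f6-/- mice. In the wild-type αPD-L1 group, the first library set had 205, 300 and 83.6 and the second 1335, 1364 and 981, so that the library sets did not overlap.

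The genotype comparison asks whether the sorts from Nr2f6-/- hosts held another amount of these transcripts. All genes were tested by limma on log2(normalized count + 1), with Benjamini-Hochberg adjustment over 11992 genes. The fold changes below are on that scale, which understates the change of low genes. The labels do not say that the replicates are separate mice. The study counts its samples as mice but with fewer in each αPD-L1 group than are labelled here, so the p-values measure only the spread between these samples, which may be technical. With IgG2b, 8 of 9 melanocyte lineage genes had a lower estimate in Nr2f6-/- mice (54.1% of all genes did). Their median log2 fold change was −1.28, against −0.06 over all genes. None of the 9 passed an adjusted p of 0.05, nor did any of the 11992 genes (0%). At an unadjusted p of 0.05 there were 641 genes (5.35%), 2 of them among the 9, Sox10 (log2 fold change −4.23, SE 1.83, adjusted p = 0.892) and Dct (−1.28, SE 0.588, adjusted p = 0.914). DESeq2 called 95 genes in this comparison and edgeR 0. The samples did not overlap, with Nr2f6-/- lower, for 5 of the 9 genes and for 8.07% of all genes. An exact permutation test of 3 against 3 samples cannot go below 0.10, which these 5 reached.

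With αPD-L1 all 9 genes had a lower estimate in Nr2f6-/- mice, where 50.3% of all genes did, and the median log2 fold change was −1.44 against 0.00 over all genes. Here, as with IgG2b, the 9 and their median include Oca2, which had reads in 3 libraries only. For Mitf the estimate was lower on the log2 scale, but its mean count was higher in Nr2f6-/- (42.8) than in wild-type mice (26.7). The comparison called 21 of 11992 genes (0.175%) and none of the 9. Dct came closest, with a log2 fold change of −1.44 (SE 0.415, adjusted p = 0.197), followed by Mlana with −2.85 (SE 0.964, adjusted p = 0.299) and Sox10 with −3.39 (SE 1.29, adjusted p = 0.361). For Pmel the log2 fold change was −0.99 (SE 0.486, adjusted p = 0.514). The 2-sided exact permutation test per gene gave p = 0.0303 for Dct and p = 0.0325 for Sox10, 2 of the 9 genes, and 7.38% of all genes reached 0.05 in that test. With 1 sample left out that count of 2 became 0 to 5, falling to 0 without Nr2f6-/- replicate 2, 4 or 5 and rising to 5 without replicate 6. The exact test gave p = 0.0649 for Mlana and p = 0.165 for Pmel. The library sets of these αPD-L1 samples were also compared alone. Within the first set Dct had a log2 fold change of −1.14, Mlana −1.34, Sox10 −3.85 and Pmel −0.68, and within the second set −1.75, −4.35, −2.92 and −1.29. For Gpnmb the sign turned, with 1.09 in the first and −2.04 in the second set, and likewise for Tyrp1 (0.39 and −1.44) and Mitf (1.03 and −3.10).

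**Figure D3:**
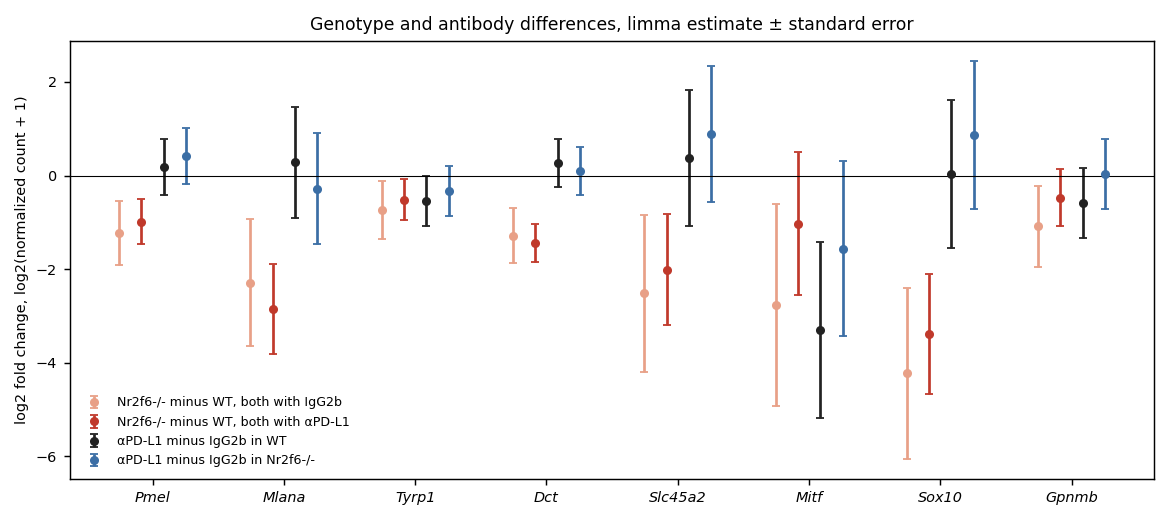
Log2 fold change of 8 melanocyte lineage genes (vertical axis, on log2(normalized count + 1)) with its standard error, for the genotype difference with IgG2b and with αPD-L1 and for the antibody difference in wild-type and Nr2f6-/- mice. The 16 genotype estimates are below 0, from −0.47 for Gpnmb to −4.23 for Sox10, and no estimate passed the adjusted test.

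The genotype difference averaged over both antibodies was added after seeing the data. It gave log2 fold changes of −1.36 (SE 0.36, adjusted p = 0.182) for Dct, −3.81 (SE 1.12, adjusted p = 0.252) for Sox10 and −2.57 (SE 0.835, adjusted p = 0.309) for Mlana. For Pmel it was −1.11 (SE 0.421, adjusted p = 0.412). Of 11992 genes 6 were called (0.050%), none of the 9 among them, while 5 of the 9 and 8.48% of all genes had an unadjusted p under 0.05. With genotype labels permuted within each antibody, over 18480 assignments, the exact test gave p = 0.00162 for Sox10, p = 0.00335 for Mlana, p = 0.00628 for Dct, p = 0.0218 for Pmel and p = 0.0392 for Slc45a2. It reached 0.05 for 9.79% of all genes. DESeq2 on the recovered reads called Sox10 in this comparison (log2 fold change −3.72, adjusted p = 0.0278) and no other melanocyte lineage gene, among 213 genes (1.02%). The medians over the 9 wild-type and 9 Nr2f6-/- samples were 1188 and 370 normalized counts for Dct, 303 and 46.6 for Mlana, 34.8 and 1.04 for Sox10 and 728 and 329 for Pmel. With the summed macrophage markers as a covariate, the averaged estimates were −1.25 for Dct, −4.57 for Sox10, −2.43 for Mlana and −1.18 for Pmel, near those without it, but −0.05 for Tyrp1 where it had been −0.63.

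The antibody comparison asks whether PD-L1 blockade changed the amount of these transcripts in the sort. In wild-type mice 29 of 11992 genes were called (0.242%), all of them lower with αPD-L1, and in Nr2f6-/- mice 39 (0.325%). None of the 9 melanocyte lineage genes was among them, and none had an unadjusted p under 0.05 in either genotype, where 7.24% and 9.7% of all genes did. Their median log2 fold change was 0.18 in wild-type and 0.03 in Nr2f6-/- mice, where all genes had −0.10 and −0.04. Leaving out Oca2, for which no fold change is given, estimates ran from −3.30 (Mitf, SE 1.88, wild-type) up to 0.88 (Slc45a2, Nr2f6-/-). All IgG2b samples were in the first library set, so these estimates mix antibody and library set. In wild-type mice Gpnmb had 566, 1029 and 558 with IgG2b. With αPD-L1 it had 205, 300 and 83.6 in the first set and 1335, 1364 and 981 in the second. In the first set the antibody groups overlapped for Pmel in wild-type and for Gpnmb in Nr2f6-/- mice. The part of the library set was not tested. Lyz2, a lysozyme of myeloid cells, fell by 2.83 on the log2 scale in wild-type mice (limma, adjusted p = 3.87e-04) and fell by 2.87 in Nr2f6-/- mice (adjusted p = 3.18e-04). The test of whether the antibody effect differed between genotypes called 0 of 11992 genes by limma and by edgeR, against 596 genes (4.97%) at an unadjusted p under 0.05 and 90 by DESeq2. Among the 9 genes the smallest adjusted p in it was 0.974 by limma, while DESeq2 called Oca2, with its 15 libraries at 0 (adjusted p = 8.26e-10).

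The Nr2f6-/- mice with αPD-L1 were also compared with the wild-type mice with IgG2b, which share samples with the comparisons above. Here 8 of the 9 genes had a lower estimate (57.8% of all genes) and Oca2 was at 0 in both groups. The call count was 74 genes (0.617%) with none of the 9. Mitf had the largest difference, with a log2 fold change of −4.33 (SE 1.88, adjusted p = 0.441), and Dct had −1.18 (SE 0.509, adjusted p = 0.438).

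The other genes of the melanosome were taken from a list of 12, of which 10 passed the filter. It was led by Rab27a, Rab32, Myo5a and Rab38, which serve organelle transport, and Rab27a is also used by T cells to release their granules. None of the 10 was called in either genotype comparison. With IgG2b 8 of them had a lower estimate in Nr2f6-/- mice, and with αPD-L1 7, where their median log2 fold change was −0.79. Of all genes 54.1% and 50.3% had a lower estimate in these comparisons. Rab27a had 1634 to 7197 normalized counts and Rab38, a transport protein of melanosomes, 3.0 to 848. Of 14 melanocyte and neural crest genes, led by S100b, S100a1, Ednrb and Kit, 10 passed the filter. Of these 8 and 6 had a lower estimate in Nr2f6-/- mice with IgG2b and with αPD-L1, and none was called there. The count with αPD-L1 was near the share of all genes, and the median log2 fold change of these genes was −0.27. S100b, a calcium-binding protein of melanocytes and glia, had 0 to 736 normalized counts. Ednrb, an endothelin receptor that melanoblasts need, was the 1 gene of both lists called for the antibody: averaged over both genotypes, a comparison added after seeing the data that called 136 genes (1.13%), it fell by 5.64 on the log2 scale with αPD-L1 (limma, adjusted p = 0.0147). In the same comparison all 14 macrophage markers had a lower estimate with αPD-L1, where 56.4% of all genes did, and 8 were called. With their sum as a covariate 0 genes were called, against 635 at an unadjusted p under 0.05. Within each genotype the macrophage sum did not overlap between the antibodies, so this fit cannot tell the covariate and the antibody apart. The part of the macrophage markers in the value of Ednrb was not tested.

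The melanocyte lineage genes varied together only in part. Across the 18 samples 12 measures were set against Pmel on the log2 scale, with permutation p-values adjusted over the 12. Pearson's r with Pmel was 0.80 for Gpnmb (Spearman's rho 0.81, permutation p = 0.00011 for r, adjusted p = 0.00132), 0.73 for Dct (rho 0.72, adjusted permutation p = 0.00552), 0.65 for Sox10 (rho 0.65, adjusted permutation p = 0.0131) and 0.64 for Mlana (rho 0.70, adjusted permutation p = 0.0131). Slc45a2 gave r = 0.49 (adjusted permutation p = 0.0891) and rho = 0.80 (adjusted permutation p = 0.00090), with 2 samples at 0. Tyrp1 gave r = 0.37 (rho 0.32, adjusted permutation p = 0.253), and Tyr, Mitf and Oca2 had r between −0.01 and 0.22. Against the summed macrophage markers r was −0.01 (rho −0.02), against the summed T cell markers −0.26 (rho −0.20) and against the reads counted on genes 0.21 (rho 0.24), none past the threshold. Without the 2 samples farthest from the Pmel median, Nr2f6-/- αPD-L1 replicates 2 and 6, r was 0.79 for Gpnmb, 0.75 for Dct, 0.60 for Mlana and 0.59 for Sox10, and Sox10 no longer passed (adjusted permutation p = 0.055). Taken as deviations from the group means, r was 0.83 for Gpnmb, 0.61 for Dct, 0.50 for Mlana and 0.47 for Sox10, of which Gpnmb and Dct passed. These deviations keep any difference between library sets, and both Pmel and Gpnmb were higher in the second set in wild-type mice with αPD-L1. Within the first library set r was 0.72, 0.74, 0.72 and 0.72 for Gpnmb, Dct, Mlana and Sox10, and within the 6 samples of the second 0.85, 0.84, 0.92 and 0.83, none of these 4 past the threshold in the second set. For Tyrp1 r was 0.62 within either set, higher than over all 18 samples (adjusted permutation p = 0.0785 in the first and 0.483 in the second). Its rho in the first set was 0.68 (adjusted permutation p = 0.0435).

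**Figure D4:**
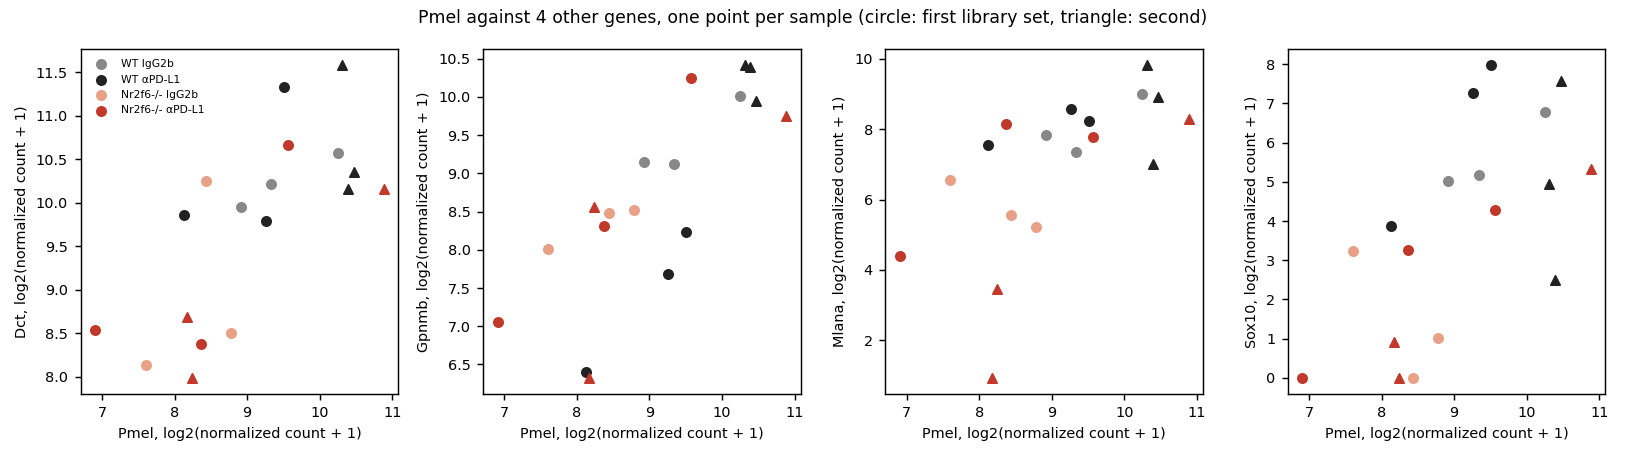
Dct, Gpnmb, Mlana and Sox10 (vertical axes) against Pmel (horizontal axes), all as log2(normalized count + 1), one point per sample, colored by group, circles for the first library set and triangles for the second. All 4 rose with Pmel across samples, with Pearson's r from 0.64 to 0.80.

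The makeup of the summed level also differed between samples. These libraries count reads at the 3′ end of a transcript, so no division by gene length was made. Removal of duplicate reads is not named in the sources used here, so reads are not taken as counts of molecules. Dct gave 20.3% to 53.0% of the pigment-cell sum per sample (median 37.2%), Tyrp1 9.87% to 43.2% (median 25.3%), Pmel 13.4% to 46.6% (median 20.7%) and Mlana 0.0977% to 17.4% (median 6.56%). Sox10 stayed at or below 6.24% and Tyr at or below 1.08%. Dct, Tyrp1 and Pmel thus made up most of the sum in every sample, in an order that changed from one to the next.

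**Figure D5:**
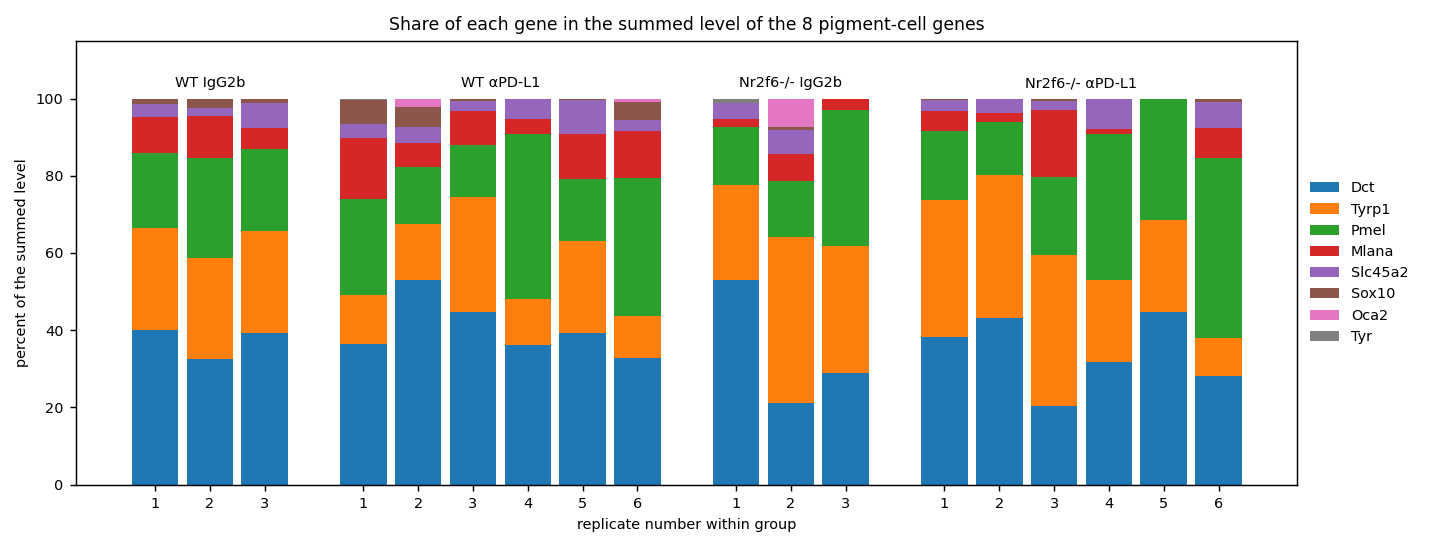
Share of each of the 8 pigment-cell genes in their summed normalized count (vertical axis, percent), one stacked bar per sample, ordered by group and replicate. Dct spans 20.3% to 53.0% and Pmel 13.4% to 46.6%, and Mlana falls to 0.0977% in 1 sample.

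The genes whose pattern was most like the pigment-cell sum were ranked by Spearman's rho over the 18 samples, as a description without a test, among 11983 genes that are not in the set. The first 10 were Cryab (rho 0.81), Mc1r (0.78), Tuft1 (0.78), Smim4 (0.76), Cd63 (0.75), Gab2 (0.75), Shc1 (0.75), Tubb3 (0.75), Tecr (0.74) and Mlph (0.74). Cryab encodes a small heat shock protein, Mc1r the melanocortin receptor of melanocytes, Cd63 a tetraspanin of late endosomes and melanosomes, and Mlph the melanophilin that links melanosomes to myosin. Mc1r had 0 to 201 normalized counts, Mlph 0 to 472, Cd63 43.2 to 2109 and Cryab 0.942 to 793. Over the listed genes the median rho was 0.35 for the 10 melanosome genes, 0.12 for the neural crest genes, 0.10 for the macrophage markers and −0.11 for the T cell markers, against 0.00 over all genes ranked.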

How the data were processed

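RNA was measured in 18 samples of sorted tumor-infiltrating T cells by 3′ sequencing (Lexogen QuantSeq, Ion Torrent Proton) in 4 groups of 3, 6, 3 and 6. According to the submitters' processing notes and the study's methods, the authors trimmed reads with cutadapt and Trimmomatic, dropped those under 22 nt, mapped them to mm10 with STAR and then Bowtie2, counted with HTSeq and normalized with DESeq2. Versions, annotation and strand setting are not given in the sources used here. The deposited values are signal: reads per gene divided by a size factor per sample. Dividing each column by its smallest value above 0 gave whole reads for 100% of values (tolerance 0.01).

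Genes with a mean of at least 10 were tested with limma 3.58.1 (R 4.3.3, empirical Bayes with a trend) on log2(value + 1), with 1 mean per group and Benjamini-Hochberg adjustment at 0.05. The members and lists were chosen with earlier results of these data known, and the averaged comparisons and the macrophage covariate were added after seeing the data. Named are the 10 members, Nr2f6, the leading 4 genes by mean of the gene lists described and the 10 genes most like the pigment-cell sum. Dgka, Cdk2 and the markers at or near 0 fall outside this rule and were chosen after their values were seen. Single genes were also tested by exact permutation over samples, and correlations with 100000 permutations (numpy, scipy). The alternatives were other pseudocounts, filters, scalings, weights, sample sets, edgeR 4.0.16 and DESeq2 1.42.0 on the recovered reads, and each sample left out. The scripts were tested on simulated data. Intervals and limits from counts cover counting error only. Gene positions are from GENCODE on GRCm38, the build that mm10 names. In the antibody comparison in wild-type mice the median log2 fold change of all genes was −0.10 and, after scaling to the same total, −0.19.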

Additional observations from a re-analysis of the deposited data

Results flagged for a closer look

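Each of the 10 melanocyte lineage genes and the pigment-cell sum was checked for a sample far from the others in the 2 groups of 6, 22 checks in all. The check was Dixon's Q (the gap to the next value divided by the range) on normalized counts, not on the log2 scale, with a limit of 0.625. That limit flags about 1 in 20 only for normally distributed values, so no chance rate is given for these counts. Tyr and Oca2 were at 0 in all 6 Nr2f6-/- samples with αPD-L1 and could not be flagged there. The check found 6. In Nr2f6-/- mice with αPD-L1, Pmel was 1891 normalized counts in replicate 6 against 757 in the next sample. In that group replicate 1 stood apart for Tyrp1, at 1512 against 641, and for Mitf, at 247 against 9.72. In wild-type mice with αPD-L1, replicate 5 stood apart for Tyrp1, at 1868 against 704, and for Slc45a2, at 686 against 203. Replicate 2 of that group stood apart for Oca2, at 102 against 29.2. The wild-type replicate 5 is the library with the highest globin sum, 10818, and whether the globin reads bear on its pigment gene values was not tested. Leaving it out, the log2 fold change of Dct between genotypes with αPD-L1 was −1.23.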

How the results depend on the processing

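No melanocyte lineage gene passed an adjusted p of 0.05 in the comparisons of 2 groups under any alternative of limma or edgeR, and Oca2, with 15 libraries at 0, and Sox10, in the averaged genotype comparison only, passed with DESeq2. Of 158 estimates of 8 of the genes (Oca2 and Tyr left out) for the genotype with IgG2b, 0 changed sign, of 214 for the genotype with αPD-L1 6 did, of 182 for the antibody in wild-type mice 19, and of 182 for it in Nr2f6-/- mice 35. For the genotype with αPD-L1 the sign turned for Tyrp1 (0.39 in the first library set alone, 0.067 with the macrophage covariate), Mitf (1.03 in that set, 0.70 by edgeR, 0.69 by DESeq2) and Gpnmb (1.09 in that set), for the averaged genotype for Gpnmb (0.0044 in that set) and for Nr2f6-/- with αPD-L1 against wild-type with IgG2b for Tyrp1 (1.70 with the covariate). For the antibody in Nr2f6-/- mice Mitf turned to 0.33 in the first set and to 0.62 with the covariate, and ran from −2.78 to 0.25 with 1 sample left out, above 0 without IgG2b replicate 1. The causes were not tested. Within each genotype the macrophage sum did not overlap between the antibodies. In comparisons between antibodies the covariate therefore cannot be told apart from the antibody. The difference of log2 sums kept its sign with 1 sample left out in the genotype comparisons (−1.34 to −0.80 with IgG2b, −1.46 to −0.96 with αPD-L1), and each alternative moved it by less than the SD within groups.

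The count of genes passing the exact test among the 9 was 2 for the genotype with αPD-L1 and 0 to 5 with 1 sample left out: it was 0 without Nr2f6-/- replicate 2, 4 or 5, 1 without wild-type replicate 1, 2 or 6 and 5 without Nr2f6-/- replicate 6. For the antibody in wild-type mice it was 0 to 1 (1 without αPD-L1 replicate 1), and for Nr2f6-/- with αPD-L1 against wild-type with IgG2b 1 with a pseudocount of 10 or scaling to the same total and 0 to 2 with 1 sample left out (2 without Nr2f6-/- replicate 1, 1 without replicate 6). The number of genes correlated with Pmel was 4, 0 in the 6 samples of the second library set alone (smallest adjusted permutation p for r = 0.151), 2 on deviations from group means and 5 on shares of the reads, where Slc45a2 passed too (r = 0.63, adjusted permutation p = 0.0128). Pearson's r of Pmel turned to 0.30, 0.050 and 0.0071 for the macrophage sum in the first set, in the second and as shares of the reads, to −0.037 for the reads counted in the first set and to 0.29 for Oca2 in the second.

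For the antibody comparison in wild-type mice, the count of called genes was 29, 868 at an unadjusted p under 0.05, 60 with a pseudocount of 10, 19 with a minimum mean of 50 or by edgeR, 15 from only the groups compared, 12 with the library set as a covariate or with the replicate block, 87 with sample weights, 0 with the macrophage covariate and 112 by DESeq2, and 6 to 29 with 1 sample left out. For the antibody comparison in Nr2f6-/- mice, the count of called genes was 39, 1163 at an unadjusted p under 0.05, 17 without the filter, 19 from only the groups compared, 8 in the first library set alone, 0 with the macrophage covariate and 292 by DESeq2, and 13 to 41 with 1 sample left out. For the genotype comparison with IgG2b, the count of called genes was 0, 641 at an unadjusted p under 0.05, 1 with a pseudocount of 10, 14 without the filter, 4 with sample weights and 95 by DESeq2, and 0 each time with 1 sample left out. For the genotype comparison with αPD-L1, the count of called genes was 21, 1167 at an unadjusted p under 0.05, 9 without the filter or with the macrophage covariate, 4 from only the groups compared, 34 in the first library set alone, 0 in the second library set alone and 230 by DESeq2, and 9 to 27 with 1 sample left out. For Nr2f6-/- with αPD-L1 against wild-type with IgG2b, the count of called genes was 74, 1084 at an unadjusted p under 0.05, 116 with a pseudocount of 10, 300 with sample weights, 0 with the macrophage covariate, 41 by edgeR and 213 by DESeq2, and 10 to 68 with 1 sample left out. For the test of differing antibody effects, the count of called genes was 0, 596 at an unadjusted p under 0.05, 5 without the filter and 90 by DESeq2, and 0 each time with 1 sample left out. For the averaged genotype comparison, the count of called genes was 6, 1017 at an unadjusted p under 0.05, 13 with a pseudocount of 10, 16 without the filter, 12 after quantile normalization, 21 with the library set as a covariate, 18 in the first library set alone, 27 with sample weights and 213 by DESeq2, and 2 to 12 with 1 sample left out. For the averaged antibody comparison, the count of called genes was 136, 1381 at an unadjusted p under 0.05, 211 with a pseudocount of 10, 88 without the filter, 69 with the library set as a covariate or with the replicate block, 273 with sample weights, 0 with the macrophage covariate and 387 by DESeq2, and 55 to 165 with 1 sample left out. Leaving out 1 sample moved these counts by over 1.5 times for each of the IgG2b samples of the antibody comparisons (6 to 10 in wild-type and 13 to 15 in Nr2f6-/- mice), for wild-type replicates 4 and 5 and Nr2f6-/- replicates 1 and 2 in the genotype comparison with αPD-L1 (9 to 13), for each wild-type IgG2b sample (10 to 22) and Nr2f6-/- αPD-L1 replicates 2, 3 and 5 (44 to 49) in the comparison across both, for each IgG2b sample in the averaged antibody comparison (55 to 85) and, in the averaged genotype comparison, for wild-type IgG2b replicates 1 and 2 and Nr2f6-/- IgG2b replicates 1 and 2 (2 to 3) and, with αPD-L1, wild-type replicate 2 (12) and Nr2f6-/- replicate 6 (11). The replicate numbers were not taken to pair the samples. Deviations of same-numbered samples of different groups had a mean correlation of 0.0066 over 21 pairs, against −0.0014 over 96 pairs with other numbers. Of 18 samples 5 correlated best with their own number, for which no chance value was computed. The replicate block is therefore given only here.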
